A study of Mus musculus with 2 samples.

Results

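The genes described here encode the CD79 chains that signal for the B-cell receptor, together with the coreceptors, inhibitory receptors and surface proteins that act beside it. They are Cd79a, Cd79b, Cd81, Cr2, Cd22, Cd72, Ms4a1, Cd37 and Ptpn6, 9 of the 43346 genes in the tables and 9 of the 21474 protein-coding ones. They were chosen by name, with earlier results of these data known. Each was found by matching its gene identifier without the version to the GENCODE annotation. RNA was measured in CH12.LX, an immortalized mouse B-cell lymphoma line from strain B10.H-2aH-4bp/Wts, in 2 libraries with 24469094 and 23586580 expected counts. The labels number them as biological replicates 1 and 2 and give each its own biosample. Both libraries form 1 group of unknown age and health state, no treatment is named, and the line stands for a lymphoma rather than for resting B cells. The design therefore holds no comparison between conditions, and with n = 2 no test between groups was possible, so levels, transcripts and the difference between the replicates are described.

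The B-cell receptor binds antigen through a membrane immunoglobulin whose own cytoplasmic tails are very short. Signals pass through the heterodimer of CD79A and CD79B, encoded by Cd79a and Cd79b, each of which carries an immunoreceptor tyrosine-based activation motif (ITAM) that Src-family kinases phosphorylate and Syk then binds. The coreceptor that holds CD21 (Cr2) and CD81 lowers the threshold for antigen that carries complement, while CD22 and CD72 carry inhibitory motifs (ITIMs) that recruit the phosphatase SHP-1, the product of Ptpn6. CD20 (Ms4a1) and the tetraspanin CD37 are further B-cell surface proteins and are targets of therapeutic antibodies.

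The signalling motifs of the members are shown as coding DNA, read from GENCODE M21 transcripts on GRCm38, because the results ask which transcripts can encode them. An ITAM was searched in the translated sequences as a tyrosine with leucine or isoleucine at the third place after it, followed by a gap of 6 to 8 residues and the same pattern again. Capitals mark the tyrosine codons.
Cd79a ITAM: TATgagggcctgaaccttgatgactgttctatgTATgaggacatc
Cd79b ITAM: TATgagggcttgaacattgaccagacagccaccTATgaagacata
The Cd79a motif lies on the plus strand at chr7:24901296-24901301 (exon 4) and chr7:24901431-24901469 (exon 5), with tyrosines 182 and 193 counted from the initiator methionine. The Cd79b motif lies on the minus strand at chr11:106312007-106312012 (exon 5) and chr11:106311867-106311905 (exon 6), with tyrosines 195 and 206. The pair agreed at 31 of 45 bases, and in both genes the motif is split between exons after 6 bases. The pattern alone occurred in 2.91% of 21747 genes with a complete annotated coding sequence (632 genes), so a match is a description and not a working motif.

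ITIMs were searched as isoleucine, leucine, valine or serine, any residue, tyrosine, any 2 residues, and leucine, valine or isoleucine. The coding sequence of Cd22 held 4 such patterns in its C-terminal tail, on the minus strand of chromosome 7, and Cd72 held 2 in its N-terminal part, on the minus strand of chromosome 4.
Cd22 ITIM 1: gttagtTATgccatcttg
Cd22 ITIM 2: gtcactTACtcggtgata
Cd22 ITIM 3: atccatTACtcagagctg
Cd22 ITIM 4: gtagacTATgtgaccctc
Cd72 ITIM 1: atcacgTATgcagacctg
Cd72 ITIM 2: ctcaccTACgagaatgtg
In Cd22 the tyrosines are 783 (chr7:30867494-30867511, exon 12), 817 (chr7:30867033-30867050, exon 13), 843 (chr7:30866600-30866617, exon 14) and 863 (chr7:30866540-30866557, exon 14). In Cd72 they are 7 (chr4:43454498-43454515, exon 1) and 39 (chr4:43454306-43454323, exon 2). The pattern is short and occurred in 49.3% of genes with a complete coding sequence (10711 genes), and only the matches named here, in the tails on the cytoplasmic side, are shown.

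Of the 9 members, 8 were expressed, defined as 1 TPM or more in both replicates (TPM, a relative abundance of transcripts that accounts for their length), against 45.9% of protein-coding genes and 25.4% of all genes. The exception was Cr2. The median level over the 9 members was 65.2 TPM, against 0.41 TPM over all protein-coding genes and 19.2 TPM over the expressed ones, and 5 of the members stood in the highest 10% of protein-coding genes. All 9 had whole expected counts with a posterior SD of 0 at gene level, so no reads were divided with other genes, as for 87.2% of expressed protein-coding genes. The library was B-cell-like by its markers: 9 of 9 B-cell genes passed 1 TPM, summing to 9856 and 8641 TPM, against 0 of 6 T-cell genes (0.49 and 0.51 TPM), 0 of 5 NK-cell genes (0.24 and 0.37 TPM) and 0 of 6 myeloid genes (0.83 and 0.91 TPM). The stromal list had 1 of 5 genes (Vcam1) and the erythroid list 1 of 4 (Hbb-bt) at 1 TPM, with sums of 2.09 and 1.98, and of 4.38 and 4.59 TPM. The marker lists are short, and Cd3g, Fcer1g and Tyrobp, described below, are not in them but reached 1 TPM in both replicates. In bulk RNA a lower level in fewer cells and less RNA per cell cannot be told apart.

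**Figure D1:**
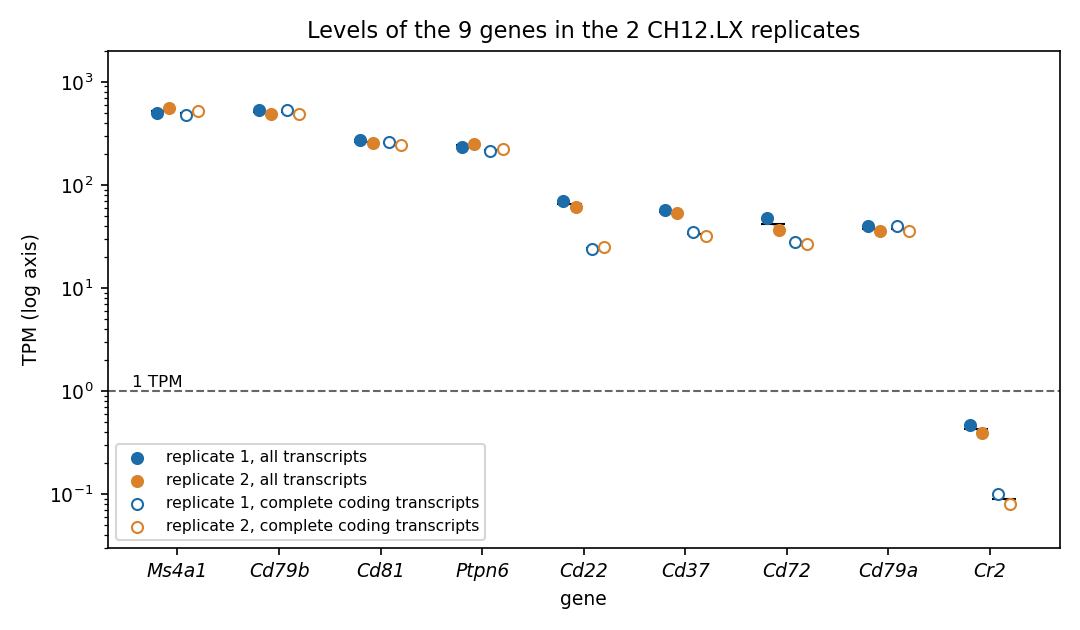
TPM (log axis) of the 9 genes in replicates 1 and 2, as points, with the mean as a bar; filled points sum all transcripts and open points only transcripts with a complete annotated coding sequence. All genes but Cr2 lie above the dashed line at 1 TPM. The open points fall clearly under the filled ones for Cd22, Cd37, Cd72 and Cr2. Those of Cd37 leave out its transcripts not in GENCODE M21, whose coding content was not read.

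The signalling chains were expressed unevenly. Cd79b (ENSMUSG00000040592.7, chr11:106311341-106314762, minus strand) measured 529 TPM in replicate 1 and 485 TPM in replicate 2, on 11002 and 9711 counts (507 ± 30.9 TPM, SD, n = 2). Cd79a (ENSMUSG00000003379.7, chr7:24897381-24902197, plus strand) measured 39.8 and 35.5 TPM on 1026 and 880 counts (37.7 ± 2.99 TPM). Both were lower in replicate 2, and the levels of one never approached those of the other. The ratio of Cd79b to Cd79a was 13.3 in replicate 1 and 13.7 in replicate 2 by TPM, and 10.7 and 11.0 by expected count without length correction. The heavy-chain constant genes, whose membrane products assemble with this heterodimer, were summed over all their transcripts. Ighm and Igha together stood at 111 and 111 times Cd79a, and at 8.34 and 8.13 times Cd79b. The share of membrane forms in this sum was not examined, so these are not ratios between receptor chains.

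Every annotated transcript of the signalling chains encodes the motif, so reads could not be assigned to a form without it. Cd79a has 1 annotated transcript, 220 residues long. Of the 2 Cd79b transcripts, Cd79b-202 (228 residues) held 90.3% of the TPM in replicate 1 and 89.3% in replicate 2. Cd79b-201, which starts 233 nt further upstream and has 60 more coding residues, held the other 9.71% and 10.7%, and both hold the ITAM shown above. Among 6 ITAM adaptors of other receptors, 3 were expressed: Fcer1g, the common Fc receptor gamma chain, at 24.0 and 17.3 TPM, Tyrobp, which encodes DAP12, at 8.13 and 6.13 TPM, and the T-cell receptor chain gene Cd3g at 1.32 and 1 TPM on 22 and 16 counts. Cd3e had 0 counts in both replicates. Cd79b made 88.4% ± 0.852 and Cd79a 6.56% ± 0.058 of the TPM over these 8 genes (SD, n = 2), so Cd79a stood second in this family. Of the 4 surrogate and associated chains of the pre-B-cell receptor, only Vpreb3 passed, at 69.2 and 50.7 TPM, above Cd79a in both replicates. Igll1, which encodes the lambda-5 surrogate chain, was at 0.1 and 0.08 TPM on 1 count each.

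The coreceptor was represented by Cd81 and not by Cr2. Cd81 (ENSMUSG00000037706.12, chr7:143052739-143067934, plus strand), a tetraspanin of the coreceptor, measured 270 and 254 TPM on 7301 and 6572 counts (262 ± 11.3 TPM). Cr2 (ENSMUSG00000026616.10, chr1:195136811-195176716, minus strand), which encodes CD21, the receptor for complement fragment C3d, measured 0.47 and 0.39 TPM on 22 and 14 counts (0.430 ± 0.0566 TPM). Cd81 was far above Cr2 in each replicate, and the ranges did not overlap.

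The low level of Cr2 rested on few counts spread over several transcripts. Of its 11 transcripts 6 held counts, and the full-length coding transcript Cr2-202 held 0.09 and 0.08 TPM. The transcript with the largest share of TPM in both replicates was Cr2-203, a retained-intron form, with 55.95% and 33.5%. By counts Cr2-202 led, with 49.6% and 68.8% against 18.8% and 14.3% for Cr2-203. The deposited posterior mean TPM of the gene was far higher, at 11.0 and 14.9 TPM, with bounds of 0.820 to 29.9 and 0.792 to 41.7 TPM. That estimate placed 85.95% and 89.7% of the gene on Cr2-206, a 206-nt transcript with 0 expected counts in both libraries, and of the scales tried it is the only one on which all 9 members passed 1 TPM.

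Other complement genes were mostly low. Of 10 complement receptors and regulators 7 passed 1 TPM, with a median of 1.25 TPM for the list. Cr1l, which encodes the complement regulator CRRY, was by far the highest at 103 and 119 TPM, and C5ar1 and Cd55b had 0 counts. Cr2 ranked 8 of these 11 genes. Of the interferon-induced transmembrane genes, a family with members that associate with CD81, Ifitm2 stood at 275 and 226 TPM and Ifitm1 at 25.3 and 25.7 TPM, while Ifitm3 had 0 counts.

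Both inhibitory receptors were expressed, at levels well under Ptpn6. Cd22 (ENSMUSG00000030577.9, chr7:30865402-30880342, minus strand), a Siglec that binds sialic acid on the same or on neighbouring cells, measured 68.9 and 61.5 TPM on 2146 and 1962 counts (65.2 ± 5.26 TPM). Cd72 (ENSMUSG00000028459.7, chr4:43446462-43454628, minus strand), a C-type lectin-like receptor, measured 47.5 and 36.6 TPM on 811 and 714 counts (42.0 ± 7.74 TPM). Ptpn6 (ENSMUSG00000004266.11, chr6:124720707-124738714, minus strand) measured 232 and 251 TPM on 8979 and 8997 counts (242 ± 13.3 TPM). Ptpn6 was 3.37 and 4.08 times Cd22 over all transcripts, and 8.89 and 8.94 times on complete coding transcripts. Against Cd72 it was 4.89 and 6.86 times over all transcripts, 7.67 and 8.29 times on complete coding transcripts, and 11.1 and 12.6 times by count.

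The TPM of Cd22 came largely from short transcripts with few counts. Its 8 transcripts under 600 nt held 60.9% of the TPM in replicate 1 and 58.4% in replicate 2, but 6.24% and 5.33% of the counts. The transcript with the largest mean share of TPM was Cd22-206, a non-coding transcript of 358 nt whose deposited effective length was 135 and 136 nt. It held 16.0% and 31.6% of the TPM on 31.2 and 52.9 counts. The 5 transcripts with a complete coding sequence, all with the 4 C-terminal ITIM patterns, held 84.0% and 92.0% of the counts, and their summed level was 23.9 and 24.8 TPM (24.4 ± 0.594 TPM). On that scale Cd22 lay under Cd79a in both replicates, whereas over all transcripts it lay above.

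Such a gap was uncommon among expressed genes but not particular to Cd22. The gene TPM exceeded 2 times the TPM on complete coding transcripts in both replicates for 7.77% of 9524 expressed protein-coding genes whose transcripts are all in GENCODE M21, with a median ratio of 1.03. Of the 7 members that could be read this way, Cd22 alone passed, at 2.88 and 2.48 times; Cd37 has transcripts outside that release and Cr2 was not expressed. Within the coding transcripts the replicates differed in which one took the counts: Cd22-203 held 483 and 861 counts, and Cd22-201, whose first exon starts 1241 nt away, held 927 and 717 counts.

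**Figure D2:**
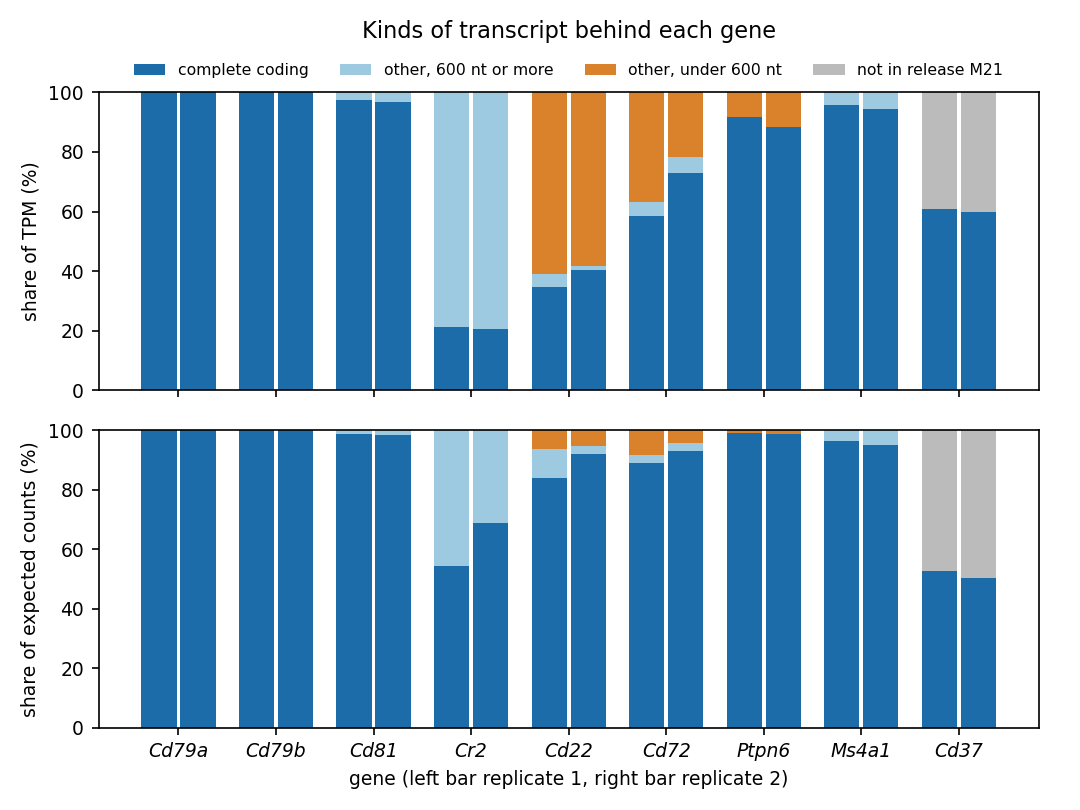
Share of each gene's TPM (top) and of its expected counts (bottom), in percent, by kind of transcript; the left bar of a pair is replicate 1 and the right bar replicate 2. Transcripts under 600 nt take 60.9% and 58.4% of the Cd22 TPM but 6.24% and 5.33% of its counts, and the grey part of Cd37 is on transcripts not in GENCODE M21.

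Cd72 was made as a mixture of coding forms. Cd72-203 (337 residues) held 32.5% and 40.7% of the TPM on 387 and 357 counts, and Cd72-205 (354 residues) held 23.6% and 28.2% on 280 and 248 counts. They differ by exon 3 and by a piece at the 5′ end of a later exon, shown here because these carry the difference between the abundant forms.
Cd72 exon 3: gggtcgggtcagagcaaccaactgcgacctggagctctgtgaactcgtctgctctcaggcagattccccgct
Cd72 alternative acceptor piece: tacctctctgacgccccccag
Exon 3 (chr4:43453641-43453712, minus strand, 72 nt) is present in Cd72-205 and absent from Cd72-203. The piece of 21 nt (chr4:43449529-43449549, minus strand) begins exon 6 of Cd72-203 and is absent from Cd72-205. Both lengths keep the reading frame.

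Among complete coding transcripts, those without exon 3 held more than those with it. Transcripts that skip it held 34.9% and 43.2% of the gene's TPM (54.4% and 56.2% of the counts), against 23.6% and 29.9% (34.5% and 36.9% of the counts) for those that include it. Over all annotated transcripts, the short non-coding Cd72-209 included, the order by TPM turned in replicate 1: forms with exon 3 held 55.8% and 47.2% of the TPM, and forms that skip it 38.9% and 49.8%. By counts the forms that skip it stayed ahead, with 56.4% and 58.8% against 41.5% and 40.03%. For the 21-nt piece, transcripts with it held 47.7% and 52.2% of the counts and those without it 41.2% and 40.8%. Exon 4 (90 nt), which encodes the most hydrophobic stretch of 19 residues, was skipped, among these coding transcripts, only in Cd72-202, with 6.74% and 6.12% of the counts. Both ITIM patterns shown above lie in exons 1 and 2, before these alternative pieces. These shares come from the authors' division of reads between overlapping transcripts and not from counts of spliced reads.

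The replicate difference of Cd72 lay mostly on a short non-coding transcript. Cd72-209 (400 nt) held 15.3 TPM in replicate 1 and 6.34 TPM in replicate 2, on 56.8 and 22.6 counts. On complete coding transcripts Cd72 measured 27.8 and 26.7 TPM (27.2 ± 0.735 TPM), a difference of -0.05 on the log2 scale against -0.37 over all transcripts.

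**Figure D3:**
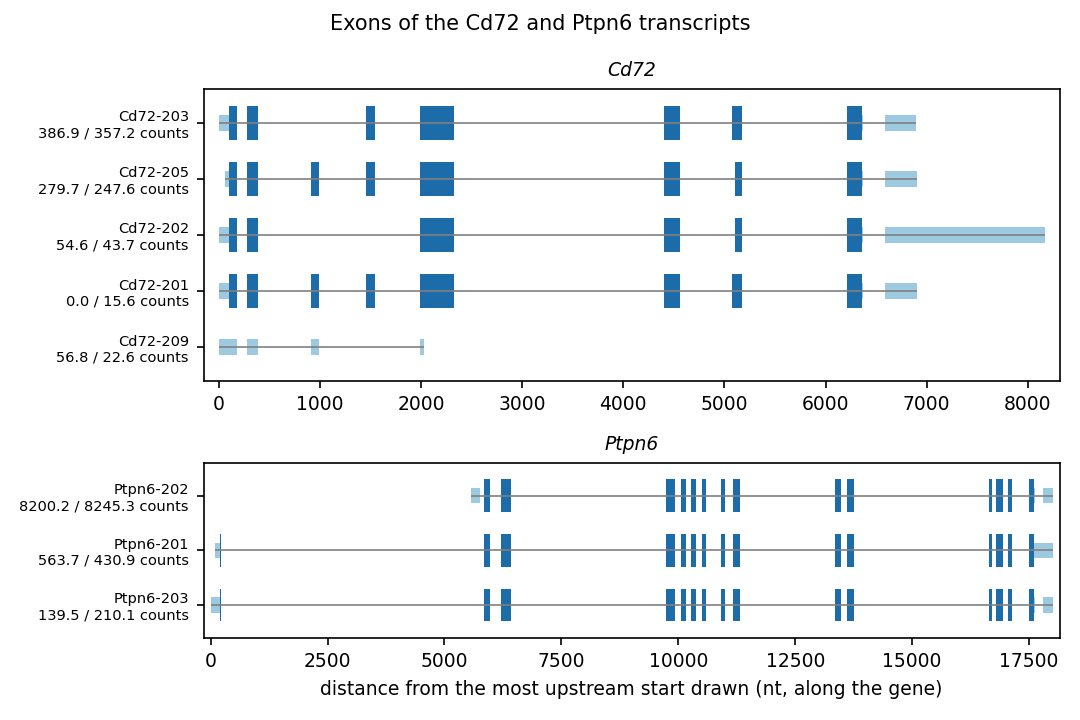
Exons of Cd72 (top) and Ptpn6 (bottom) transcripts, drawn to scale by distance in nt from the most upstream start drawn; tall dark blocks are coding, low light blocks are not, and labels give the counts of replicates 1 and 2. Cd72-203 lacks exon 3 of Cd72-205, and Ptpn6-202, with 8200 and 8245 counts, starts 5471 nt downstream of Ptpn6-201.

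The reads of Ptpn6 were assigned mainly to the transcript with the downstream first exon. The gene has an upstream first exon and a downstream one, whose starts lie 5471 nt apart in Ptpn6-201 and Ptpn6-202, and each gives its own first codons before a shared coding sequence of 1778 bases. Capitals mark the start codon.
Ptpn6-202 start: ATGgtgaggtggtttcaccgggacctcagc
Ptpn6-201 start: ATGttgtcccgcgggtggtttcaccgggac
The first is at chr6:124732946-124732953 and chr6:124732839-124732860, the second at chr6:124738499-124738512 and chr6:124732845-124732860, both on the minus strand. They differ in the 7 coding bases that precede the shared part in Ptpn6-202 and the 13 in Ptpn6-201, and the encoded lengths are 595 and 597 residues. Ptpn6-202 held 84.7% and 82.1% of the TPM and 91.3% and 91.6% of the counts. The coding transcripts with the upstream exon together held 7% and 6.19% of the TPM, and 7.83% and 7.13% of the counts. The remainder was on short forms, the largest being the retained-intron transcript Ptpn6-204 (421 nt) with 6.47% and 9.19% of the TPM. These shares too come from the authors' division of reads, and reads over the first exons were not counted. Ptpn6-201 and Ptpn6-202 also differ in their 3′ non-coding part, so the division between them does not rest on the first exons alone.

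Ms4a1 was the highest member by its mean over all transcripts, though not on complete coding transcripts. This gene (ENSMUSG00000024673.9, chr19:11249675-11266241, minus strand) encodes CD20, a protein with several membrane spans. It measured 493 and 554 TPM on 29232 and 31499 counts (524 ± 43.5 TPM). Both values lay above the deposited upper bounds of 484 and 548 TPM. With Ms4a1 counted, 3 members lay above their upper bound in replicate 1 and 2 in replicate 2. Cd37 (ENSMUSG00000030798.9, chr7:45233632-45239115, minus strand), a tetraspanin of mature B cells, measured 56.7 and 53.0 TPM on 1385 and 1272 counts (54.9 ± 2.64 TPM). Ms4a1-201 held 95.7% and 94.3% of the Ms4a1 TPM, and the rest was on 2 retained-intron transcripts. Cd81-201 likewise held 97.3% and 96.7% of Cd81. For Cd37 the leading transcript Cd37-202 (281 residues) held 52.3% and 56.4%, and the 7 transcripts that are not in GENCODE M21 held 39.1% and 40.1%, so what they encode is not described here.

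Ranked by mean TPM the members ran Ms4a1, Cd79b, Cd81, Ptpn6, Cd22, Cd37, Cd72, Cd79a and Cr2. The replicates gave overlapping ranges for 2 neighbouring pairs, Ms4a1 with Cd79b, whose order turned between replicates, and Cd72 with Cd79a. Cd81 and Ptpn6 were separated only narrowly, the lower Cd81 value being 254 TPM and the higher Ptpn6 value 251 TPM. By posterior mean TPM their order turned between replicates, with Cd81 at 262 and 249 TPM and Ptpn6 at 242 and 270 TPM. On complete coding transcripts Cd79b (529 and 485 TPM) stood above Ms4a1 (472 and 523 TPM) by the mean, again with overlapping ranges. The lower part of the order changed to Cd79a (39.8 and 35.5 TPM), Cd37 (34.5 and 31.7 TPM), Cd72 (27.8 and 26.7 TPM) and Cd22 (23.9 and 24.8 TPM). The place of Cd37 in this order is uncertain. This scale leaves out its transcripts outside GENCODE M21, which held 39.1% and 40.1% of its TPM and whose coding content was not read.

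Several members led their gene families. Ms4a1 made 95.4% ± 0.248 of the TPM over 15 MS4A genes (SD, n = 2). Of the other 14, 4 passed 1 TPM, led by Ms4a6c at 15.3 and 17.0 TPM, and 6 had 0 counts in both libraries. Ptpn6 made 35.7% ± 0.931 of the TPM over 17 non-receptor tyrosine phosphatases, ahead of Ptpn2 (103 and 125 TPM) and Ptpn18 (119 and 101 TPM), and 10 of the other 16 passed. Its relative Ptpn11, which encodes SHP-2, stood at 25.4 and 22.4 TPM, so that Ptpn6 was 9.15 and 11.2 times as high by TPM but 3.14 and 3.72 times by count.

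Among 31 tetraspanins Cd81 was second, with 24.9% ± 0.078 of the TPM, and Cd37 sixth, with 5.22% ± 0.042. Cd53, another leukocyte tetraspanin, was first at 358 and 343 TPM, and Cd82 (136 and 120 TPM), Tspan31 (76.9 and 74.6 TPM) and Tspan3 (65.4 and 61.4 TPM) stood between Cd81 and Cd37. Of the 29 tetraspanins other than the members 14 passed 1 TPM, and Tspan7, Tspan11 and Prph2 had 0 counts. Cd81 was 4.76 and 4.79 times Cd37 over all transcripts, and 7.61 and 7.74 times on complete coding transcripts, a scale that leaves out the Cd37 transcripts outside GENCODE M21.

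Cd22 led the Siglecs, and its lead shrank on coding transcripts. Over all transcripts Cd22 made 71.4% ± 3.03 of the TPM over 9 Siglec genes, with Siglecg, the other inhibitory B-cell Siglec, at 24.0 and 26.3 TPM. On complete coding transcripts Cd22 made 55.9% and 52.3%, with Siglecg at 18.2 and 21.6 TPM. None of the other 7 Siglecs reached 1 TPM, and Siglec1, Siglec15 and Mag had 0 counts.

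Cd22 and Cd72 were then set beside a list of other inhibitory receptors. The list also held Fcrl1 (34.8 and 35.9 TPM), which is known as an activating receptor with ITAM-like motifs and was left out after the values were seen. Among the 12 remaining genes Cd22 and Cd72 were first and second over all transcripts, with 27.9% ± 0.742 and 17.96% ± 2.34 of the TPM (SD, n = 2). On complete coding transcripts Btla, an immunoglobulin-superfamily inhibitory receptor, was first at 27.5 and 28.3 TPM, and Cd72 and Cd22 ranked 2 and 3. The ranges of Btla and Cd72 overlapped on that scale. Of the 11 other listed genes matched, Fcrl1 included, 10 passed 1 TPM, and Cd300a did not (0.25 and 0.14 TPM).

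**Figure D4:**
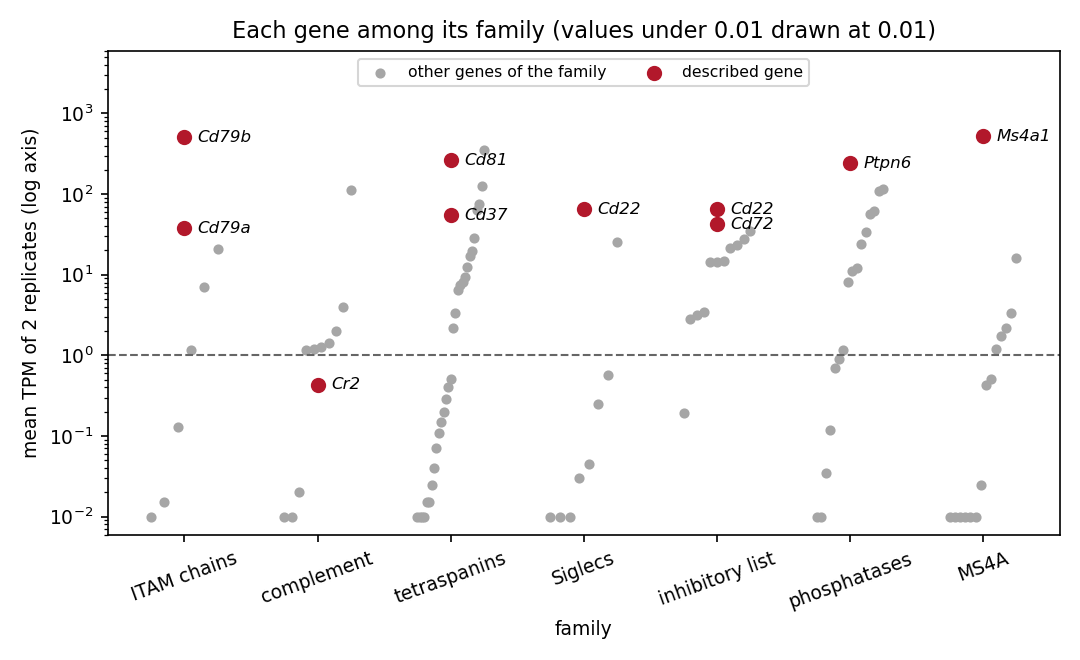
Mean TPM of the 2 replicates (log axis) for each described gene (red) and the other genes of its family (grey), with values under 0.01 drawn at 0.01 and the dashed line at 1 TPM; the inhibitory list still holds Fcrl1. Ms4a1, Cd79b, Ptpn6 and Cd22 stand highest in their families, Cd81 lies under Cd53, and Cr2 lies under 1 TPM.

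The genes listed around the members mostly passed 1 TPM, against 45.9% of all protein-coding genes. These lists were chosen with earlier results of these data known, so the higher share is not a result about them. All 10 genes listed for the making, transfer and removal of sialic acid, the sugar that CD22 binds, passed 1 TPM, led by the synthase gene Nans at 115 and 107 TPM. St6gal1, the sialyltransferase that makes the linkage CD22 prefers, stood at 65.8 and 55.2 TPM, and Cmah, which hydroxylates the sialic acid, was lowest at 2.39 and 2.5 TPM. Of 26 genes of proximal B-cell receptor signalling 25 passed, with a median of 30.8 TPM, from Prkcb, a protein kinase C gene, at 147 and 124 TPM down to Cbl, a ubiquitin ligase gene, at 3.41 and 3.11 TPM. The exchange factor gene Rasgrp1 did not pass (0.29 and 0.39 TPM), while its relative Rasgrp3 stood at 84.4 and 88.7 TPM. Sema4d, which encodes the CD72 ligand CD100, measured 9.7 and 7.37 TPM. All 12 transcription factors listed for Cd79a, Cd79b and Ms4a1 passed, with Spib (131 and 107 TPM) and Pou2af1 (118 and 120 TPM) highest, in an order that turned between replicates, and Runx1 (2.37 and 2.49 TPM) lowest.

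The replicates differed in these genes about as much as in all genes tested, with 4 of 8 members above the median absolute difference of all. For each gene averaging at least 20 expected counts, log2(TPM + 0.5) in replicate 1 was subtracted from that in replicate 2; adding 0.5 makes differences of low genes look smaller. None of the 8 members tested differed over 1.5-fold, against 2.69% of 11661 genes (1.84% lower and 0.858% higher in replicate 2). With 1 library on each side this compares the libraries only. The members ran from -0.37 for Cd72 to 0.17 for Ms4a1, with a median absolute difference of 0.14 against 0.14 over all genes tested, and 9.38% of genes differed more than Cd72. Lower values in replicate 2 were seen for 6 members, all but Ms4a1 and Ptpn6, against 50.2% of all genes. On complete coding transcripts Cd22 changed sign, from -0.16 to 0.05.

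**Figure D5:**
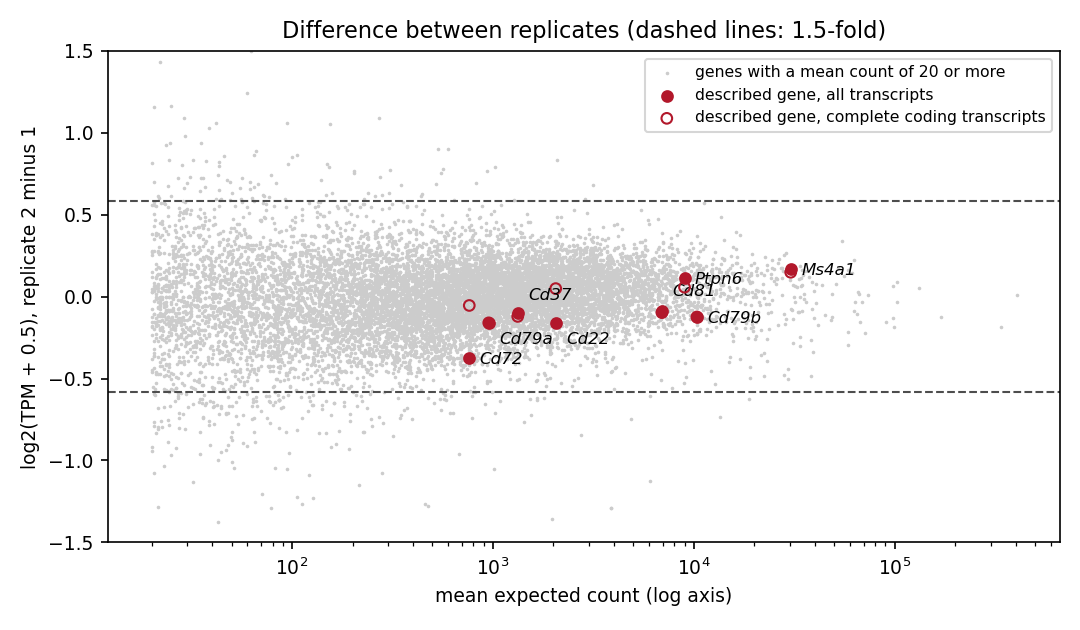
Difference of log2(TPM + 0.5), replicate 2 minus replicate 1, against the mean expected count (log axis) for genes with a mean count of 20 or more (grey) and 8 members (red; open circles use complete coding transcripts only). All members lie within the dashed lines at 1.5-fold, Cd72 is lowest at -0.37, and 14 grey genes fall outside the axis.

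Genes on the opposite strand overlap 6 of the members. Use of strand in the counting is not given in the sources used here. These partners held few counts next to the members. Tesk1, a kinase gene that overlaps Cd72 by 1603 nt, held 73 and 59 counts, and R74862, which overlaps Cd81 by 948 nt, held 39 and 35. Tead2 next to Cd37 held 6 and 7 counts, Gm20531 over Ptpn6 held 3 in each library, and the partners of Cd22 and Ms4a1 held 0.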

How the data were processed

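RNA of 2 CH12.LX replicates was measured by RNA sequencing. Per the labels ERCC spike-ins were added; the assay is titled total RNA but described as poly(A)+ above 200 nt, which was not settled. Software for alignment and counting: not given in the sources used here. Per the file headers, the authors deposited gene and transcript tables on mm10 with expected counts, which divide shared reads and are not normalized. TPM and FPKM values were also deposited by the authors, scaled by length and library, and FPKM served as an alternative only. Isoform percent, which divides the TPM of a gene among its transcripts, posterior means and TPM bounds were deposited as well, and the credibility level of the bounds is not stated.

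The depth was 24469094 and 23586580 expected counts. Per the labels the annotation was GENCODE M4. Symbols, coordinates and sequences came from GENCODE M21 on GRCm38, which is mm10, and all 9 members matched. Whether the alleles of this strain match the assembly was not examined. A transcript counted as complete coding when annotated as protein coding without a missing start or end of its coding sequence. Computation used Python 3.11.15, pandas 2.3.3, numpy 2.4.6, Biopython 1.88 and, for TMM factors on rounded counts, edgeR 4.0.16. The scripts were tested on simulated data.

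The members and the 13 lists (155 of 156 genes matched, Lilrb4a not) were chosen with earlier results of these data known. Named are all members and, from every list, the extremes and genes near the members or at 0; further list genes named for their role were chosen after their values were seen. Alternatives covered the scale, thresholds, pseudocount, count filter, library scaling and each replicate left out.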

Additional observations from a re-analysis of the deposited data

How the results depend on the processing

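The number of members expressed was 8 under thresholds of 0.5 and 5 TPM, with either replicate alone and on complete coding transcripts, and 9 by posterior mean TPM. No member differed over 1.5-fold between replicates under any pseudocount (0.1 or 1), count filter (none or a mean of 100), library scaling or on complete coding transcripts, the last chosen after seeing the data. Scaling to the ERCC spike-ins (78336 and 60634 counts) raised the median difference of all genes to 0.29, and all 8 members were then higher in replicate 2, with 6 of 8 still under that median. The median level of the members was 65.2 TPM. It was 85.7 TPM when rescaled to nuclear protein-coding genes, and 61.5 to 68.9 TPM with either replicate left out. On complete coding transcripts it was 37.7 TPM, and without transcripts under 600 nt 52.6 TPM (both chosen after seeing the data). The complete coding scale leaves out the Cd37 transcripts outside GENCODE M21. The ratio of Cd79b to Cd79a was 13.5 ± 0.250 by TPM, 10.9 by expected counts, 13.0 by counts per annotated length, and 13.3 to 13.7 with either replicate left out. A leading transcript held over 50% of its gene in both replicates for 6 members by isoform percent, 5 by counts and 7 by posterior percent. With either replicate left out the number was 6 to 7. Where it was 7, the added member was Cr2. By posterior percent this was through Cr2-206, which had 0 counts, and with replicate 2 left out through Cr2-203, on 4.14 counts. The list genes expressed numbered 105 at 1 TPM, 108 at 0.5 TPM and 82 at 5 TPM. No paired analysis was possible because both libraries form 1 group. Counts of 22 and 14 limit what can be said of Cr2 and its transcripts.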
